A study of Mus musculus with 4 samples.

Results

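The immediate early genes followed here, 10 in all, were measured in mouse neural stem cells. They are the zinc finger factor genes Egr1, Egr2 and Egr3, the orphan nuclear receptor genes Nr4a1, Nr4a2 and Nr4a3, the immediate early response genes Ier2 and Ier3, the synaptic gene Arc and the phosphatase gene Dusp1. The genes were chosen by symbol, with earlier results of these data already known. Shares of all tested genes given beside them are therefore a description and not an independent test. All 10 were among the 24421 genes counted and among the 15012 that passed a filter on low counts. The cells came from the cerebral cortex of C57BL/6J mouse embryos at embryonic day 17. They were kept for 1 day in medium with 10 ng/mL basic FGF and 10 ng/mL EGF before poly(A) RNA was sequenced. One group of 2 libraries had the genotype Prrc2b f/f; Nestin-Cre, with floxed Prrc2b and a Cre transgene under Nestin control, which is active in neural progenitors and so acts in neurons and glia that descend from them. The other group of 2 libraries, Prrc2b f/f, had the floxed alleles and no Cre. These are called the Nestin-Cre and the f/f libraries below. No source used here says how many embryos went into a library or whether replicates are separate cultures. The p-values therefore cover the spread among these libraries alone, and that spread may be technical.

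Immediate early genes are transcribed within minutes of a stimulus from factors that are already present in the cell, with no need for new protein. Growth factor receptors reach many of them through the ERK kinase cascade and the serum response factor SRF with its ternary complex partners, while calcium and cyclic AMP act through CREB. In neurons the same genes follow synaptic activity, and in dissociated tissue they can respond to handling.

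Libraries held 25936794 to 28263272 counts assigned to genes. Prrc2b, the gene targeted by Cre, stood at 576 and 574 counts-per-million (CPM) in the Nestin-Cre libraries and 587 and 593 CPM in the f/f libraries. A gene total still counts reads from exons outside the loxP sites, so it does not check the genotype. On the Y chromosome, Uty, Kdm5d, Eif2s3y and Ddx3y had 0 counts in both Nestin-Cre libraries and 180 to 667 counts in the f/f libraries. Sex, the presence of Cre and the intended deletion in Prrc2b therefore cannot be told apart in any value below. The neural stem cell markers Nes and Sox2 were abundant in both groups, with Nes at 541 and 541 CPM in the Nestin-Cre libraries and 630 and 627 CPM in the f/f libraries, and Sox2 at 443 and 445 CPM against 430 and 457 CPM.

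Of the 10 genes, 8 fell in the Nestin-Cre libraries, 0 rose and 2, Nr4a2 and Nr4a3, did not pass (edgeR's quasi-likelihood test, Benjamini-Hochberg adjusted p under 0.05). Across all tested genes 33.1% passed, 18.1% as lower (2711 genes) and 15.1% as higher (2263 genes). With upper quartile scaling that split was 2288 lower and 2939 higher, and the median of all genes moved by 0.03 on the log2 scale. By unadjusted p under 0.05 none of the 10 was higher either, and DESeq2 called 0 higher. The median log2 fold change, Nestin-Cre over f/f, was -0.34 over the 10 genes and 0.00471 over all tested genes. For the same 8 genes both Nestin-Cre libraries lay below both f/f libraries in CPM, which held for 31.0% of all tested genes. Tested against a 1.2-fold change in place of no change, 3 of the 10 passed as lower, Ier3, Arc and Egr2, beside 5.06% of all tested genes. DESeq2 called 7 of the 10 lower, all of the 8 except Dusp1, beside 10.9% of all genes. The RNA came from whole cultures, so fewer cells of a type that transcribes a gene and less RNA per cell cannot be told apart.

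**Figure D1:**
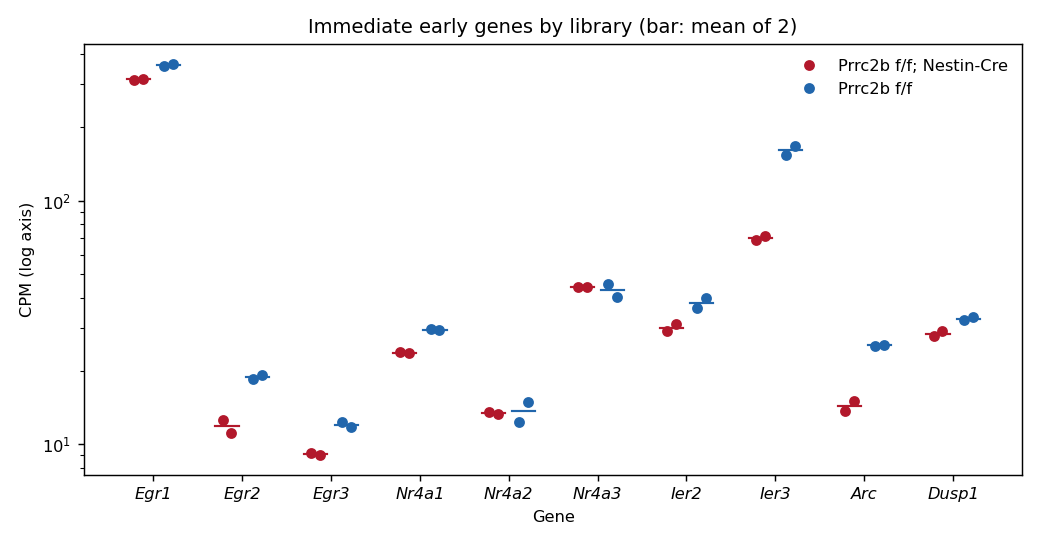
Level of each gene in counts-per-million (CPM, log axis), with a point for each of the 2 Nestin-Cre libraries (red) and 2 f/f libraries (blue) and a bar at the mean. The points of the groups overlap for Nr4a2 and Nr4a3 and lie apart for the other 8 genes.

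Egr1 encodes a zinc finger transcription factor that binds GC-rich promoters and is induced by growth factors and by synaptic plasticity. It had 313 and 317 CPM in the Nestin-Cre libraries, from 8831 and 8215 counts, against 356 and 366 CPM in the f/f libraries, from 9441 and 10331 counts. It was the most highly counted of the 10 genes and fell by 13.2%, with non-overlapping groups. The log2 fold change was -0.20 ± 0.03 (SE; 2 libraries a group; edgeR's quasi-likelihood test, adjusted p = 2.89e-08), and the ratio had a 95% interval of 0.837 to 0.900.

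Egr2, known as Krox20 and needed for hindbrain segments and for myelination by Schwann cells, was lower by a larger ratio than Egr1. It had 12.6 and 11.1 CPM in the Nestin-Cre libraries against 18.6 and 19.3 CPM in the f/f libraries. The log2 fold change was -0.68 ± 0.08 (edgeR's quasi-likelihood test, adjusted p = 1.62e-08; 95% interval of the ratio 0.555 to 0.701). Egr3, needed for muscle spindles and active in neurons, had 9.18 and 9.02 CPM in the Nestin-Cre libraries against 12.3 and 11.7 CPM in the f/f libraries. Its log2 fold change was -0.41 ± 0.10 (edgeR's quasi-likelihood test, adjusted p = 0.000891). The 3 Egr genes were thus all lower, with Egr2 furthest from no change.

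Counts of genes within one library can be set against each other without any library scaling. Egr2 had 4.03% and 3.51% of the Egr1 count in the Nestin-Cre libraries, against 5.22% and 5.29% in the f/f libraries. Egr3 had 2.93% and 2.85% of the Egr1 count in the Nestin-Cre libraries, against 3.46% and 3.21% in the f/f libraries. Both ratios were lower in each Nestin-Cre library than in each f/f library. With 2 against 2 libraries an exact two-sided permutation test cannot give a p below 0.333, so no ratio could pass a test. Egr1 made up 93.5% and 94.0% of the counts of the 3 Egr genes in the Nestin-Cre libraries, against 92.0% and 92.2% in the f/f libraries.

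The Nr4a genes encode nuclear receptors with no known natural hormone, whose activity follows mainly from how much protein is made. Nr4a1, also called Nur77, had 23.8 and 23.8 CPM in the Nestin-Cre libraries against 29.6 and 29.5 CPM in the f/f libraries. Its ratio was 0.800 (log2 fold change -0.32 ± 0.06, edgeR's quasi-likelihood test, adjusted p = 6.21e-05), and replicates of each group were close to each other. Nr4a2, or Nurr1, which midbrain dopamine neurons need to form, had 13.6 and 13.3 CPM in the Nestin-Cre libraries against 12.4 and 14.9 CPM in the f/f libraries. Nr4a3, or Nor1, had 44.4 and 44.1 CPM in the Nestin-Cre libraries against 45.6 and 40.2 CPM in the f/f libraries. For both genes the f/f libraries lay on either side of the Nestin-Cre libraries.

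Neither Nr4a2 nor Nr4a3 passed the test. The log2 fold change of Nr4a2 was -0.03 ± 0.09 (edgeR's quasi-likelihood test, adjusted p = 0.829), with a 95% interval of the ratio of 0.862 to 1.11. That of Nr4a3 was 0.04 ± 0.05 (edgeR's quasi-likelihood test, adjusted p = 0.625), with an interval of 0.953 to 1.11. The interval of Nr4a1, 0.734 to 0.872, lay below that of Nr4a3 and overlapped that of Nr4a2. Without f/f replicate 2 the log2 fold changes were 0.11 for Nr4a2 and -0.05 for Nr4a3, each of the opposite sign. The count of Nr4a1 was 53.7% and 53.8% of that of Nr4a3 in the Nestin-Cre libraries, against 65.0% and 73.4% in the f/f libraries. The summed level of the 3 receptor genes was 81.8 and 81.2 CPM in the Nestin-Cre libraries against 87.6 and 84.6 CPM in the f/f libraries.

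Ier3, known as IEX-1, encodes a short protein that modulates cell survival and ERK signalling and is also induced by NF-kB. It showed the largest change of the 10 genes, with 68.9 and 71.8 CPM in the Nestin-Cre libraries against 154 and 167 CPM in the f/f libraries. The corresponding counts were 1942 and 1863 against 4092 and 4727. Its level was 0.435 times that of the f/f libraries (95% interval 0.412 to 0.459; log2 fold change -1.20 ± 0.04, edgeR's quasi-likelihood test, adjusted p = 4.55e-25). In all, 1.57% of the tested genes had a lower log2 fold change than Ier3.

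Ier2, a regulator that moves between cytoplasm and nucleus, had 29.1 and 31.2 CPM in the Nestin-Cre libraries against 36.2 and 40.0 CPM in the f/f libraries. The log2 fold change was -0.35 ± 0.06 (edgeR's quasi-likelihood test, adjusted p = 7.79e-06). The 95% interval of its ratio, 0.722 to 0.852, lay above that of Ier3, so the pair shared a direction but not a size. Ier3 had 2.37 and 2.31 times the Ier2 count in the Nestin-Cre libraries, against 4.26 and 4.18 times in the f/f libraries, and 0.220 and 0.227 times the Egr1 count against 0.433 and 0.458 times.

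Arc encodes a protein of dendritic spines that promotes the removal of AMPA receptors from synapses and assembles into capsid-like particles. It had 13.6 and 15.0 CPM in the Nestin-Cre libraries against 25.4 and 25.7 CPM in the f/f libraries. After Ier3 this was the largest fall among the 10 genes, by 44.3% (log2 fold change -0.84 ± 0.07, edgeR's quasi-likelihood test, adjusted p = 3.83e-12). Its count was 4.36% and 4.74% of that of Egr1 in the Nestin-Cre libraries, against 7.14% and 7.02% in the f/f libraries.

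Dusp1 encodes a nuclear phosphatase that inactivates the MAP kinases p38 and JNK, and is itself induced by the pathways it curbs. It had 27.7 and 29.3 CPM in the Nestin-Cre libraries against 32.2 and 33.3 CPM in the f/f libraries. The groups did not overlap, and the log2 fold change was -0.21 ± 0.06 (edgeR's quasi-likelihood test, adjusted p = 0.00446). Of the 8 calls it was the one lost in most alternatives, 3 of 15. Beside the test of a 1.2-fold change, it was lost with DESeq2 (adjusted p = 0.0968) and without Nestin-Cre replicate 1 (edgeR's quasi-likelihood test, adjusted p = 0.0722), in a range of adjusted p from 0.00277 to 1.00 over the 15.

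**Figure D2:**
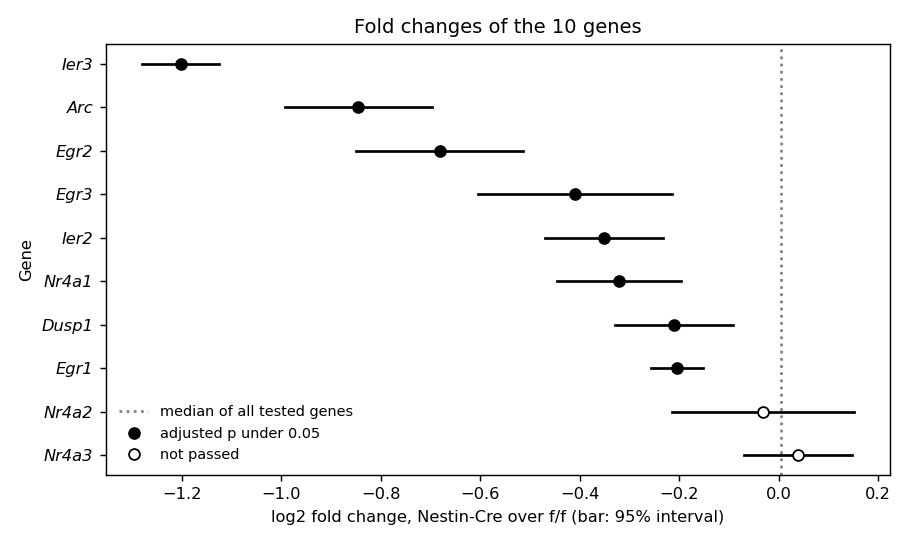
Log2 fold change of each gene, Nestin-Cre over f/f libraries (2 against 2), with its 95% interval, and a dotted line at the median of all 15012 tested genes. Filled points passed at adjusted p under 0.05. Ier3 lies furthest to the left at -1.20, and the intervals of Nr4a2 and Nr4a3 cross 0.

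Set against the whole group, the genes did not keep the same shares. All 10 genes together came to 556 and 565 CPM in the Nestin-Cre libraries against 723 and 747 CPM in the f/f libraries. Egr1 supplied 56.3% and 56.0% of that sum in the Nestin-Cre libraries against 49.3% and 48.9% in the f/f libraries. Ier3 and Egr1 together supplied 68.7% and 68.7% against 70.6% and 71.3%.

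**Figure D3:**
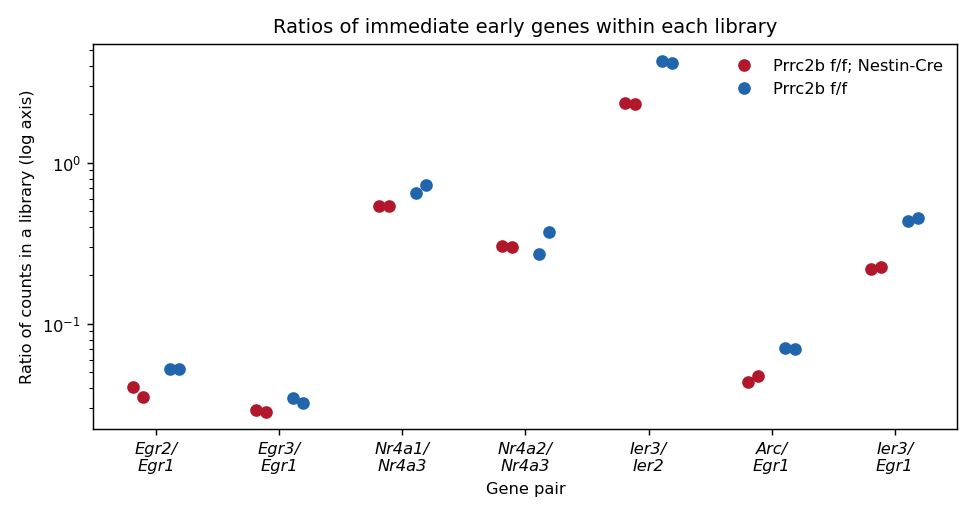
Ratio of the counts of a pair of genes within a library (log axis), for the 2 Nestin-Cre (red) and 2 f/f (blue) libraries. The groups lie apart for 6 of the 7 pairs, and overlap for Nr4a2 over Nr4a3.

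Levels of different genes were compared per kilobase of the principal transcript in GENCODE. In the Nestin-Cre libraries Egr1 led with 70.2 ± 0.574 CPM per kb, followed by Ier3 with 62.2 ± 1.86 CPM per kb. In the f/f libraries Ier3 led with 142 ± 7.99 CPM per kb, followed by Egr1 with 80.5 ± 1.44 CPM per kb (SD, 2 libraries each). The leading pair thus stood in opposite order in the groups. By this length Ier2, Dusp1 and Nr4a1 came next in both groups, at 19.8, 14.3 and 9.32 CPM per kb in the Nestin-Cre libraries and 25.0, 16.5 and 11.6 CPM per kb in the f/f libraries. Nr4a3 ranked above Arc in the Nestin-Cre libraries (7.75 and 7.71 against 4.47 and 4.91 CPM per kb) and below it in the f/f libraries (7.97 and 7.03 against 8.33 and 8.40 CPM per kb). Egr2, Nr4a2 and Egr3 were lowest in both groups, in that order. Egr2 had 4.26 and 3.74 CPM per kb in the Nestin-Cre libraries and 6.28 and 6.52 CPM per kb in the f/f libraries, while Nr4a2 averaged 3.77 and 3.83 and Egr3 2.31 and 3.06 CPM per kb. Egr2 and Nr4a2 overlapped in the Nestin-Cre libraries, and their order there is not resolved. With the union of all exons as the length, Nr4a3 (7.41 and 7.37 CPM per kb) stood above Nr4a1 (6.79 and 6.77 CPM per kb) in the Nestin-Cre libraries, so their order there depends on the length used. The order in the f/f libraries was the same with either length.

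**Figure D4:**
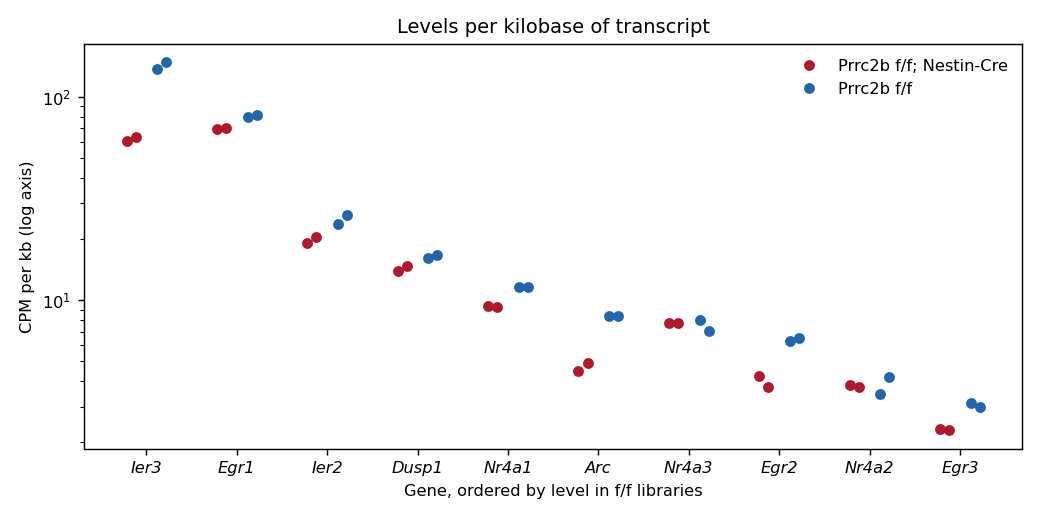
Level of each gene in CPM per kilobase of its principal transcript (log axis), with a point for each of the 2 Nestin-Cre (red) and 2 f/f (blue) libraries, ordered by the f/f level. Ier3 stands above Egr1 in the f/f libraries and below it in the Nestin-Cre libraries.

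The genes lie on separate chromosomes or far apart. On mm10 as annotated by GENCODE M21, Egr1 spans 34859823 to 34864984 of chromosome 18 and Egr3 70077203 to 70082614 of chromosome 14, both on the plus strand. Egr2 spans 67535475 to 67542188 of chromosome 10 (plus strand), Nr4a2 57106830 to 57124003 of chromosome 2 (minus strand) and Nr4a3 48045153 to 48086447 of chromosome 4 (plus strand). Arc lies on the minus strand of chromosome 15 from 74669083 to 74672570, and Nr4a1 on the plus strand of the same chromosome from 101254269 to 101274795. Dusp1 (minus strand, 26505590 to 26562128) and Ier3 (plus strand, 35821684 to 35822923) share chromosome 17. Ier2 is a single-exon gene on the minus strand of chromosome 8, from 84661331 to 84662852. Of the 10 genes, 9 overlap no other annotated gene. Dusp1 overlaps 4 annotated genes, of which AC122252.4, AC122252.1 and Gm8225 share 0 exonic bases with it. With Ergic1, on the opposite strand, Dusp1 shares 11 exonic bases, 0.332% of its exonic length. As the strand setting of the counting is not stated, reads there cannot be assigned to either gene.

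Genes that lay closest to the average course of the 10 genes over the 4 libraries were found by the distance between log2 CPM profiles, each centred on its own mean. Among 11066 genes with a mean log2 CPM of at least 3, the nearest were Mgat5, a glycosyltransferase gene of N-glycan branching (distance 0.00698), and Vat1 (0.00852). Fosb, which encodes a subunit of the AP-1 factor and is itself an immediate early gene, was next (0.0147), followed by the kinase gene Mast4 (0.0195) and the nuclear lamin gene Lmna (0.0225). Of the 10 genes themselves, Egr3 was nearest to their average (0.0849) and Ier3 furthest (0.782). With 4 libraries in 2 groups, such nearness mostly restates a similar fold change.

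Promoter sequence from RefSeq (GRCm38.p6, the assembly of mm10) was at hand for 6 of the 10 genes and was searched on both strands, in the 250 bases before the start site, for 6 motifs known for these pathways. These were the CArG box bound by SRF, the full cyclic AMP response element TGACGTCA, its shortened site TGACG (of which the full element holds an overlapping pair), the EGR site GCGTGGGCG, the NR4A monomer site AAAGGTCA and the TATA box TATAAA. Among 32817 start sites 1.47% had a CArG box, 1.55% the full element, 17.7% the shortened site, 0.536% the EGR site, 1.34% the NR4A site and 12.4% the TATA box. The shortened site was found in 5 of the 6 windows, the CArG box in that of Egr2 alone and the full element in that of Dusp1 alone, while the EGR and NR4A sites were found in 0 of 6. The TATA box letters were found in that of Nr4a2, on the opposite strand. Egr2 had 5 start sites in RefSeq, and its window is the one before the start of the principal GENCODE transcript. Matches before its other start sites are not given here. Egr1, Egr3, Ier2 and Arc had no sequence at hand, so nothing is known here of motifs before them. A match is a string of letters and not a measured binding site.

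Shown are 5 windows, those of the genes at hand that fell and of Nr4a3, which did not pass, so that the matches can be set beside the fold changes. They are Egr2 (chr10:67537619-67537868, plus strand), Nr4a1 (chr15:101266596-101266845, plus strand), Nr4a3 (chr4:48045055-48045304, plus strand), Ier3 (chr17:35821463-35821712, plus strand) and Dusp1 (chr17:26508473-26508722, minus strand). Each is written 5′ to 3′ on the gene's strand and ends at the base before the start site, with matches in capitals. The RefSeq start lies 12577 bases from the start of the principal GENCODE transcript for Nr4a1, and 8965 bases from it for Nr4a2, whose window was searched but is not shown.
Egr2: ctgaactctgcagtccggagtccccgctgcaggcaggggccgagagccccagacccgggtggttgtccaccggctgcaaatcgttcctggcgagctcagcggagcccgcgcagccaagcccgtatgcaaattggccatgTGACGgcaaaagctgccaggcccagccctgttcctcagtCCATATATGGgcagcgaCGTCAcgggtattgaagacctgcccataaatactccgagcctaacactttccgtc
Nr4a1: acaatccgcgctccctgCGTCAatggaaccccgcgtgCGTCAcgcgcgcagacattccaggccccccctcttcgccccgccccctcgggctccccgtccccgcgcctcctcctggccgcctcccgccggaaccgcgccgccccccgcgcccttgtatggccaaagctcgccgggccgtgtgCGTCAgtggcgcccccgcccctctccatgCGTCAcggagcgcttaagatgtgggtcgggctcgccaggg
Nr4a3: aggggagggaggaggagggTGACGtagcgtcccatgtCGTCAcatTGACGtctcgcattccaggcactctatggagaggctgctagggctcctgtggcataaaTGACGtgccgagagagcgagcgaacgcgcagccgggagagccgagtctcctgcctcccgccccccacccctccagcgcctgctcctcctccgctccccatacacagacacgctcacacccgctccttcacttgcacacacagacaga
Ier3: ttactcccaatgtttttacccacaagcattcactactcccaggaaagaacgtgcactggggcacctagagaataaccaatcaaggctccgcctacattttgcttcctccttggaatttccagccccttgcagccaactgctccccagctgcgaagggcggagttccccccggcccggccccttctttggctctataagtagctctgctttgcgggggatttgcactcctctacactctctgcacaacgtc
Dusp1: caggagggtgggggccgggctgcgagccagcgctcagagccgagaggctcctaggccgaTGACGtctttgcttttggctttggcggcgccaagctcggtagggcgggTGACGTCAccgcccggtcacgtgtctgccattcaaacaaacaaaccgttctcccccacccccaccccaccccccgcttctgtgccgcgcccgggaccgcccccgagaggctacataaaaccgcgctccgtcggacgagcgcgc
Shortened sites stood in capitals 4 times before both Nr4a1, which fell, and Nr4a3, which did not pass. The window of Ier3, the gene with the largest fall, held none of the 6 motifs. In that of Egr2 the CArG box ran from 72 to 63 bases before the start.

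Junb and several other AP-1 genes were among the further immediate early genes that fell. The AP-1 genes Jund (237 and 261 CPM in the Nestin-Cre libraries against 227 and 246 CPM in the f/f libraries) and Fosl1 did not pass. Of 20 further immediate early transcription factor genes 12 fell, 1 rose and 7 did not pass, with a median log2 fold change of -0.35. The AP-1 subunit genes Junb (46.1 and 46.9 CPM in the Nestin-Cre libraries against 106 and 110 CPM in the f/f libraries) and Fosl2 (50.4 and 50.5 against 87.3 and 82.1 CPM) had the smallest p, with Ier5l (34.4 and 37.5 against 63.9 and 65.3 CPM) and Jun (254 and 254 against 323 and 336 CPM). Btg2, an antiproliferative gene, was the one gene of that list that rose, at 117 and 117 against 96.0 and 96.7 CPM. Egr4 and Ier5, relatives of the Egr and Ier genes named here after their values were seen, did not pass. Egr4 had 1.84 and 2.00 against 1.25 and 1.52 CPM, from 33 to 52 counts a library, and its groups did not overlap (log2 fold change 0.46 ± 0.24, edgeR's quasi-likelihood test, adjusted p = 0.148; 95% interval of the ratio 0.979 to 1.93). Ier5 had 51.9 and 51.8 against 51.0 and 52.8 CPM, with an interval of 0.931 to 1.06.

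Of 24 immediate early genes with other products 19 fell, 0 rose and 5 did not pass, with a median of -0.36. Those with the smallest p were the NF-kB regulator genes Nfkbiz (27.4 and 30.5 CPM in the Nestin-Cre libraries against 61.4 and 60.6 CPM in the f/f libraries) and Nfkbia (33.1 and 38.3 against 57.7 and 58.3 CPM). With them were Socs3, which curbs cytokine receptors (21.6 and 22.6 against 43.4 and 44.1 CPM), and Zfp36, whose protein promotes decay of AU-rich messenger RNAs (18.4 and 16.3 against 31.6 and 32.9 CPM). These counts, like those of the lists that follow, stand beside 18.1% lower and 15.1% higher over all tested genes. The lists too were chosen with earlier results of these data known, so the contrast is not an independent test. Against a 1.2-fold change, 7 of the further transcription factor genes and 12 of the genes with other products were lower, beside 5.06% of all tested genes.

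Of 12 genes of SRF, ternary complex and CREB factors, which act upstream of the 10, 4 fell, 0 rose and 8 did not pass, with a median of -0.12. Over all tested genes 18.1% passed as lower and 33.1% in either direction. A count of 4 of 12 is near the share for either direction and above the share for lower alone, in a short list. The 4 were Elk3 (log2 fold change -0.28 ± 0.04), the SRF coactivator gene Mkl2 (-0.21 ± 0.05), Srf itself (-0.17 ± 0.05) and Elk4 (-0.15 ± 0.06). Of the pair of Egr co-repressor genes Nab2, which Egr factors induce, fell (102 and 100 CPM in the Nestin-Cre libraries against 115 and 117 CPM in the f/f libraries), and Nab1 did not pass (47.6 and 49.2 against 50.1 and 49.6 CPM). Among 11 other dual specificity phosphatase genes 7 fell and 1, Dusp10, rose, with a median of -0.15. With DESeq2, 2 of the upstream genes and 3 of the phosphatase genes were lower and Dusp10 did not pass. Against a 1.2-fold change, 0 of the upstream genes and 2 of the phosphatase genes were lower. Without Nestin-Cre replicate 2, 2 of the upstream genes were lower, and without Nestin-Cre replicate 1 or f/f replicate 2, 4 of the phosphatase genes were.

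Of 15 feedback genes that ERK signalling from FGF and EGF receptors induces, 14 fell, 0 rose and Etv4 did not pass, with a median of -0.33. The number lower was 10 with DESeq2, 10 without Nestin-Cre replicate 1, 11 without f/f replicate 2 and 6 against a 1.2-fold change. The ERK phosphatase genes Dusp4 (39.0 and 35.4 CPM in the Nestin-Cre libraries against 73.5 and 74.8 CPM in the f/f libraries) and Dusp6 (70.9 and 72.9 against 116 and 117 CPM) had the smallest p. They were followed by the Sprouty genes Spry4 (83.6 and 84.2 against 122 and 123 CPM) and Spry1 (57.0 and 55.2 against 82.5 and 83.9 CPM). The count of Dusp6 was 2.56 and 2.49 times that of Dusp1 in the Nestin-Cre libraries, against 3.60 and 3.51 times in the f/f libraries. Dusp4, Dusp5 and Dusp6 are in both this list and that of the phosphatases, and Phlda1 and Errfi1 in both this list and that of the other products.

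Of 12 genes known to answer neuronal activity in a later wave, 7 fell, 1 rose and 4 did not pass, with a median of -0.29. The number lower was 5 with DESeq2 and 3 against a 1.2-fold change. The neurotrophin gene Bdnf had 4.82 and 5.13 CPM in the Nestin-Cre libraries against 10.2 and 11.0 CPM in the f/f libraries. The pentraxin gene Nptx2 had 58.3 and 56.8 against 84.3 and 90.1 CPM, and the neuropeptide precursor gene Vgf 32.6 and 31.9 against 41.9 and 45.0 CPM. The synaptotagmin gene Syt4 rose, with 192 and 192 against 153 and 152 CPM.

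**Figure D5:**
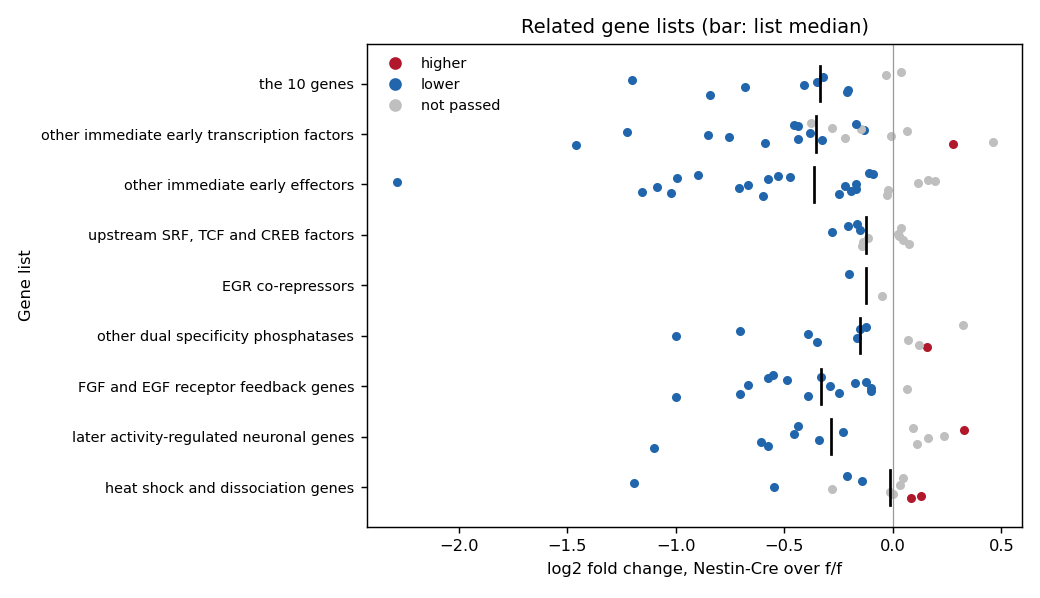
Log2 fold change of each tested gene (Nestin-Cre over f/f libraries, 2 against 2) in the 10 genes and 8 related lists, coloured by whether it passed as higher (red), lower (blue) or not (grey), with a bar at the list's median. The medians lie between -0.36 and -0.0122, nearest to 0 for heat shock genes.

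Heat shock genes can be induced by tissue dissociation together with immediate early genes. Of 11 such genes 4 fell, 2 rose and 5 did not pass, with a median of -0.0122, and their summed level was 5427 to 5428 CPM in the Nestin-Cre libraries and 5366 to 5503 CPM in the f/f libraries. Abundant genes set that sum, among them Hsp90ab1 with 2452 and 2464 against 2492 and 2440 CPM. Genes at a few CPM hardly enter it. Those that fell with the smallest p were Hsph1 (107 and 110 against 126 and 124 CPM) and Hspd1 (442 and 437 against 489 and 475 CPM). The inducible gene Hspa1b, at 2.34 and 2.43 against 3.66 and 3.29 CPM, and Hspb1, at 1.24 and 1.43 against 2.91 and 3.15 CPM, also fell, from 35 to 97 counts a library. Hspa1a, at 4.40 and 3.55 against 5.25 and 4.42 CPM, did not pass. The co-chaperone genes Dnajb1 and Dnaja1 rose by 0.13 ± 0.05 and 0.08 ± 0.03 on the log2 scale. Neither rise was called with DESeq2 (3 genes lower), at adjusted p under 0.01 (3 lower), without f/f replicate 2 (4 lower) or against a 1.2-fold change (1 lower), and 1 gene was higher when either Nestin-Cre replicate was left out. The part of dissociation in the levels of the 10 genes was not tested.

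Markers of several cell types moved with the groups. Of 7 astrocyte markers 6 fell and 1 did not pass, with a summed level of 1986 to 1987 CPM in the Nestin-Cre libraries and 2948 to 2963 CPM in the f/f libraries. Of 11 neural stem and radial glial markers 6 fell and 2 rose (6879 to 6887 against 8290 to 8328 CPM in all). Of 12 neuronal markers 6 rose and 2 fell (3025 to 3043 against 2658 to 2679 CPM), and of 8 markers of the oligodendrocyte lineage 4 rose and 1 fell (1542 to 1585 against 1399 to 1440 CPM). Mural cell and fibroblast markers fell for 8 of 10 tested and rose for 1 (70.7 to 75.7 against 194 to 198 CPM), and choroid plexus markers rose for 7 of 8 (1367 to 1381 against 213 to 220 CPM).

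Markers of blood and vessel cells were low. Microglial and macrophage markers fell for 5 of 7 tested of 12 (3.24 to 4.04 CPM in all in the Nestin-Cre libraries, against 7.51 to 8.85 CPM in the f/f libraries). Endothelial markers fell for 2 of 9 tested of 10 and rose for 1 (21.0 to 22.3 against 26.4 to 28.1 CPM). The globin genes Hba-a1, Hba-a2, Hbb-bs and Hbb-bt had 0 counts in all 4 libraries, and the other 3 of 7 erythroid markers were near 0. The part of these cell types in the lower levels of the immediate early genes was not tested.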

How the data were processed

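The authors deposited unnormalized counts for each gene symbol, in 1 table per library. The mm10 build, HISAT2 2.2.1, HTSeq 0.12.4 and DESeq2 1.26.0 are named, without their roles, per the submitters' processing notes. Annotation and strand setting: not given in the sources used here. Per the labels' protocols, the libraries were poly(A)-selected, marked for strand by dUTP and read as pairs. Lines that name no gene stand at the end of each table. They held 25.2% to 26.1% of all entries and were left out.

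Groups and replicate numbers came from the sample titles. The members and lists were chosen with earlier results of these data known. The comparison used edgeR (version 4.0.16, under R 4.3.3): filterByExpr, TMM scaling, then the quasi-likelihood test in its newer form, adjusted by Benjamini-Hochberg over 15012 genes at 0.05. The common biological coefficient of variation was 0.0242. Standard errors were derived from each log2 fold change and its F statistic, and 95% intervals use its degrees of freedom. CPM are counts-per-million of the counts assigned to genes, and a floor of 3 counts is 0.106 to 0.116 CPM, for counting error only, since reads carry no molecular identifiers. Replicates differed by more than sampling noise (chi-square per gene of 2.20 and 1.96 within the Nestin-Cre and f/f groups). The genes named are the 10, Prrc2b, up to 4 of each related list by smallest p and the 5 nearest profiles; other genes named were picked after their values were seen. The steps were tested on simulated counts. The 15 alternatives were other scalings, filters, tests (DESeq2 1.42.0, limma 3.58.1 voom) and thresholds, a replicate block, and each library left out. Lengths and positions are from GENCODE M21 on GRCm38, the assembly of mm10.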

Additional observations from a re-analysis of the deposited data

How the results depend on the processing

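Of 150 values of the 10 genes under 15 alternatives, 141 kept their direction and their side of the threshold, 7 kept their direction but no longer passed, and 2 changed sign. With one library left out, the log2 fold change ran from -0.16 to 0.11 for Nr4a2 and from -0.0527 to 0.13 for Nr4a3. Both changed sign without f/f replicate 2, to 0.11 and -0.0527, and for both the f/f libraries lay on either side of the Nestin-Cre libraries. Neither gene passed in any alternative. Against a 1.2-fold change, 3 of the 10 genes were called lower, and 279 genes were higher and 760 lower over all, since that test asks for a larger difference. DESeq2 called 1055 genes higher and 1642 lower over all, and an adjusted p of 0.01, a stricter limit, gave 1490 higher. The cause of the lower DESeq2 counts was not tested. With one library left out the number of the 10 called lower was 7 to 8, none was higher, and the median log2 fold change was -0.36 to -0.30; a lone library is then assumed to vary like the other group. With upper quartile scaling 2939 genes were higher and 2288 lower over all, and the median of the 10 genes was -0.31. With the replicate block 8 of the 10 genes were lower and 0 higher, as without it, and their median was -0.33. Over all genes the block gave 2881 lower and 2442 higher, against 2711 and 2263 without it. Deviations of same-numbered libraries had a correlation of -0.0165. That value cannot show whether same-numbered libraries were prepared together, which is not known. Counts of 234 to 546 in a library for Egr2, Egr3 and Nr4a2 limit how small a change can be seen there.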
